A study of Mus musculus with 24 samples.

Results

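Whole-tissue RNA of the rectum was compared between germ-free mice, which carry no microbiota, and conventional mice, which carry one. All arrays whose titles name the rectum were taken, 3 germ-free and 3 conventional, 6 of the 24 arrays of a series that also covers the corpus of the stomach, the jejunum and the descending colon in both kinds of mouse. Per the labels, the rectum was the last 1 cm of the digestive tube and the descending colon the 2 cm before it, and the tissue was rinsed, kept in an RNA preservative and frozen. The 4 regions came from each mouse, so rectum arrays may share animals with arrays of the other regions, and nothing in the labels ties arrays to animals or states pooling. Strain, sex, age, diet and any other treatment are not given in the sources used here, and a p-value here reflects array-to-array spread alone, which may be technical in part.

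The rectum is lined by absorptive colonocytes and mucus-secreting goblet cells above a lamina propria rich in IgA-secreting plasma cells, and it ends at the squamous epithelium of the anal canal. Resident bacteria are known to recruit plasma cells, to induce antimicrobial lectins of the Reg3 family and acute phase proteins in the gut wall, and to ferment fibre to butyrate, a fuel of colonocyte mitochondria. Germ-free mice lack all of these inputs, and a piece of whole wall also holds muscle, nerves, fat and blood vessels.

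Each array gave a scaled signal intensity, an arbitrary linear unit, for 12488 probe sets. Signals under 21.2 were raised to that floor before taking log2, and 9033 probe sets that exceeded 51.5 on at least 3 of the 24 arrays were tested. The 6 rectum arrays had median signals between 74.2 and 89.9, with 21.6% to 28.5% of their probe sets at or under the floor. Every difference below is germ-free minus conventional on the log2 scale of the floored signal, with its standard error (SE), from limma with Benjamini-Hochberg adjustment over the 9033 probe sets. The number of arrays limits the precision. Gene lists use 1 probe set for each gene, the one with the highest mean over all 24 arrays.

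Markers of the hindgut stood high on 5 of the 6 rectum arrays. Hoxb13, a homeobox gene of the hindgut, read 989, 1500.2 and 1539 on germ-free arrays 1, 2 and 3 and 41.7, 1524 and 1355 on conventional arrays 1, 2 and 3. Aqp8, a water channel of colonocytes, read 1468, 1689.5 and 1966 on the germ-free arrays and 45.3, 1654 and 1731 on the conventional arrays. The library labelled conventional rectum 1 thus lacked both markers of its label, and it also had Car1, a colonic carbonic anhydrase, at 5.3 and Apoa1, an apolipoprotein of enterocytes, at 8048. Across all probe sets it correlated at 0.966 with conventional jejunum 1, against 0.833 to 0.880 with the other rectum arrays (Pearson's r across probe sets, which are not independent). Germ-free rectum 1 kept the hindgut markers and added gastric ones. Atp4b, a subunit of the acid pump of parietal cells, read 851, 45.5 and 13.7 on the germ-free arrays and 3.5, 5 and 4.8 on the conventional arrays. Cblif, gastric intrinsic factor, read 952, 56.4 and 90.2 on the germ-free arrays and 27.4, 40.6 and 46.2 on the conventional arrays. The same germ-free library had markers of stratified squamous epithelium, with Krtdap at 1239, 153.8 and 42.5 on the germ-free arrays and 14.1, 16.8 and 16.1 on the conventional arrays. The median of Krtdap was 9604 over the arrays labelled corpus and 22 over those of descending colon, and the source of these markers was not tested. Of skeletal muscle markers, Acta1 read 39.7 to 66.9 on the germ-free and 32.3 to 71.4 on the conventional arrays, while Tnni1, the slow troponin I, read 844, 1539 and 1652 on the germ-free arrays and 122, 1902 and 1266.5 on the conventional arrays. The summed signal of 17 such genes was 3026 to 4789 on the germ-free and 1413 to 5478 on the conventional arrays. Results are therefore given with all 6 arrays, and the main ones again without germ-free rectum 1 and conventional rectum 1, which leaves 2 arrays against 2. Germ-free rectum 2, with Atp4b at 45.5, stays in that second fit. Among arrays of other regions, conventional jejunum 3 carried hindgut markers (Hoxb13 at 1626 and Aqp8 at 1556.5), and so did germ-free corpus 3 (Hoxb13 at 1399 and Aqp8 at 1166).

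**Figure D1:**
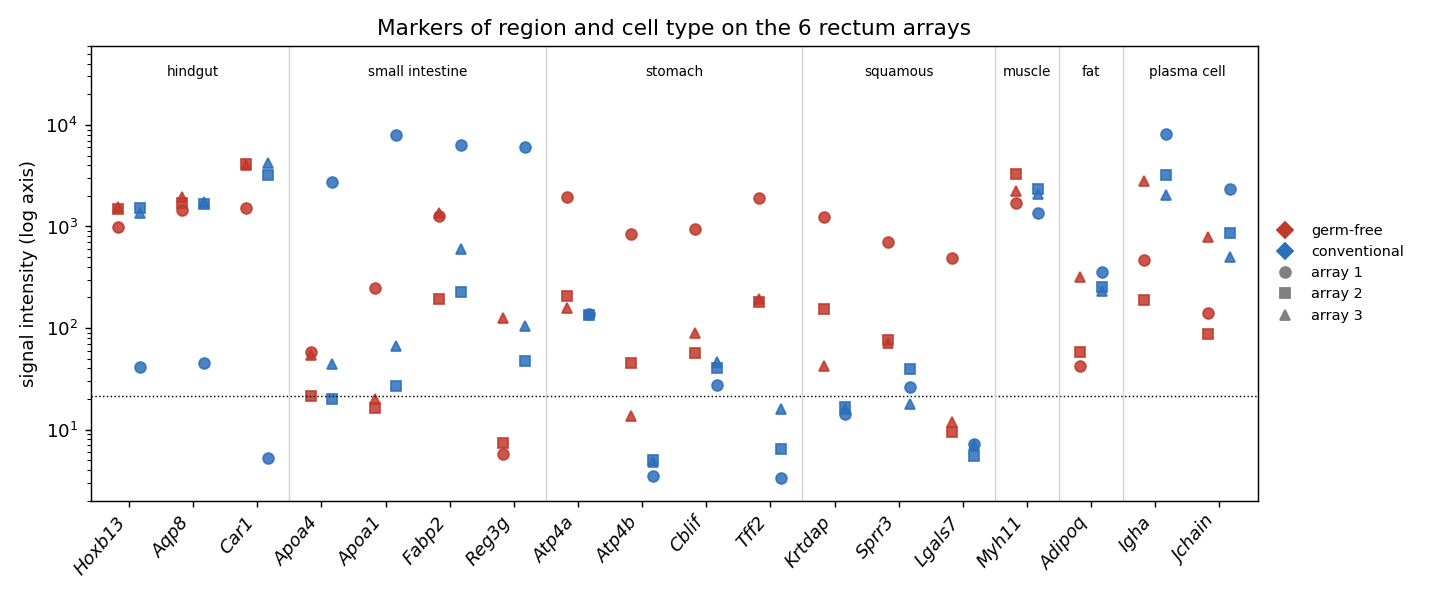
Signal intensity (log axis) of region and cell type markers on the 6 rectum arrays, with germ-free arrays in red to the left of conventional arrays in blue, 1 point for each array and the floor of 21.2 as a dotted line. Conventional array 1 (blue circles) sits apart at the hindgut and small intestinal markers, and germ-free array 1 (red circles) at the gastric and squamous markers.

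One probe set passed the test in the rectum. Limma called 1 of 9033 probe sets higher in germ-free rectum (0.0111%) and 0 lower (0%), at an adjusted p under 0.05. Without adjustment, 315 probe sets (3.49%) had a p under 0.05, 161 higher and 154 lower, and the second lowest adjusted p was 0.982. Without the 2 libraries the same probe set was called, 192 had an unadjusted p under 0.05 (2.13%), and every other adjusted p was 1. Leaving out 6 libraries with markers of another region, 4 of them from other regions, also gave this 1 call (adjusted p = 0.0131) and 500 probe sets at an unadjusted p under 0.05 (5.54%). Genes other than this probe set are therefore described below by their arrays and not as changed. A gene is said not to overlap where all germ-free arrays lay on one side of all conventional arrays. By probe set, 6.68% did not overlap and were higher and 4.42% were lower. With all 6 arrays, 6.36% of the 6650 genes did not overlap and were higher in germ-free rectum, and 4.77% did not overlap and were lower. Without the 2 libraries, the shares were 19.5% higher and 15.3% lower. Of 924 genes held by 44 lists, limma called 0, and 25 higher and 16 lower had an unadjusted p under 0.05.

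The called probe set was 161328_i_at, 1 of the pair annotated to Urod, uroporphyrinogen decarboxylase of the heme synthesis pathway. It read 71.2, 92.9 and 106 on the germ-free arrays and 13.7, 19.6 and 17.4 on the conventional arrays, which were all under the floor. Its mean was 90.0 ± 17.6 in germ-free and 16.9 ± 2.98 in conventional rectum (SD, n = 3 each). The signal rose at least 4.19-fold in germ-free rectum (log2 difference 2.07 ± 0.27 SE, adjusted p = 0.00214), and without the 2 libraries the log2 difference was 2.23 ± 0.34 (adjusted p = 0.0358). The probe set went the other way in each of the remaining regions. In the descending colon it read 15.5, 17.3 and 19.7 on germ-free arrays and 80.1, 82.9 and 86.1 on conventional arrays. In the jejunum the values were 20.5, 11.9 and 27.2 on germ-free and 80.3, 74.4 and 146 on conventional arrays. In the corpus they were 21.4, 26.6 and 24.1 on germ-free and 51.9, 40.5 and 71.7 on conventional arrays. In none of the 4 regions did the groups overlap. By label, germ-free rectum lay near conventional tissue of the other regions and conventional rectum near germ-free tissue. Conventional rectum 1, which had small intestinal markers, read 13.7, while conventional jejunum 1 and 2 read 80.3 and 74.4. Its signal thus went with its label and not with those markers. Conventional jejunum 3, which had hindgut markers, read 146, far from conventional rectum. The reason was not tested.

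The status difference of this probe set in rectum exceeded that in descending colon by 4.04 ± 0.38 (limma interaction, adjusted p = 1.16e-05). It exceeded the mean of the other 3 regions by 3.79 ± 0.31 (adjusted p = 1.01e-06), a contrast added after the data were seen. In both tests it was the single probe set called (0.0111%). The other Urod probe set, 94275_at, did not share the pattern. Probe set 94275_at read 158, 117 and 129.5 on germ-free rectum arrays and 123, 213 and 165 on conventional rectum arrays, with overlapping groups. Its log2 difference in the rectum was -0.29 ± 0.24, or -0.61 ± 0.29 without the 2 libraries. The call in the rectum was absent with the floor at 51.5 (log2 difference 0.79, adjusted p = 1) and when the 6 rectum arrays were fitted alone (adjusted p = 0.226). What the 2 probe sets hybridise to was not tested, since probe sequences were not used here.

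**Figure D2:**
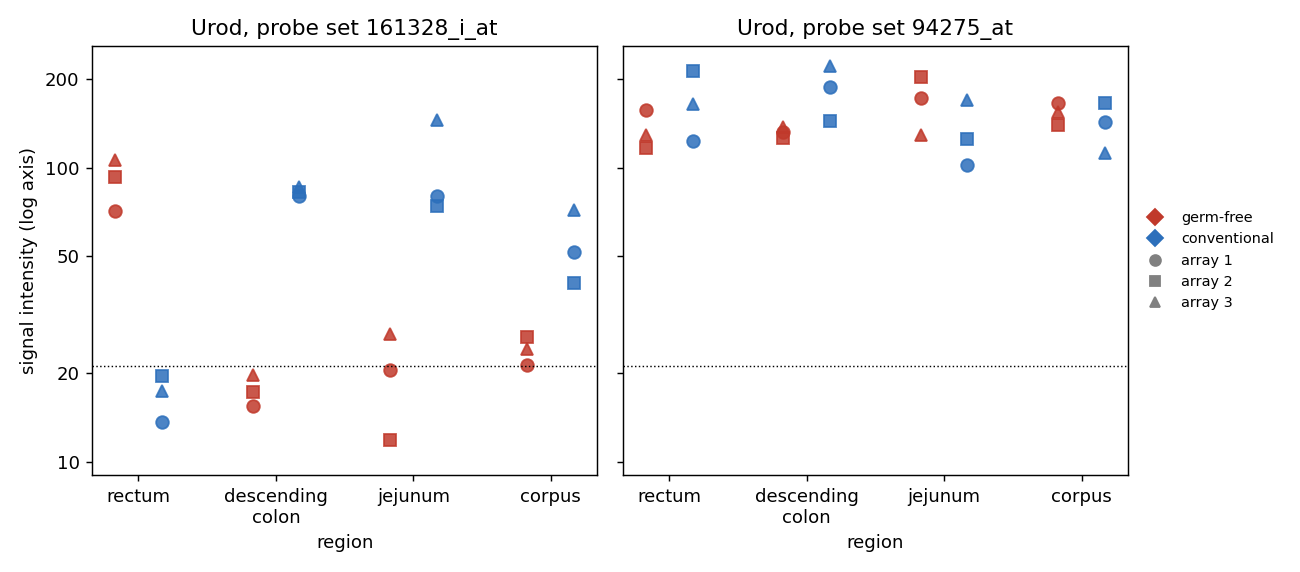
Signal intensity (log axis) of both Urod probe sets in the 4 regions, germ-free (red) left of conventional (blue), 1 point for each of the 24 arrays and the floor of 21.2 as a dotted line. For 161328_i_at the germ-free arrays are the high group in rectum and the low group in the other 3 regions, while the groups of 94275_at overlap in rectum.

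After the Urod probe set, the lowest p belonged to Lrg1, a secreted leucine-rich glycoprotein of the acute phase response. It read 16.2, 17.3 and 25.1 on the germ-free rectum arrays and 89.6, 101 and 88.9 on the conventional arrays. The groups did not overlap, and conventional array 1 lay with the other conventional arrays (log2 difference -2.05 ± 0.50, adjusted p = 0.982; -2.04 ± 0.64 without the 2 libraries). Reg3b, an antibacterial lectin of enterocytes, read 105, 96.7 and 676 on the germ-free arrays and 8568, 539 and 1482 on the conventional arrays. Its groups overlapped through germ-free array 3, and the log2 difference of -3.32 ± 1.26 became -1.81 ± 1.48 without the 2 libraries. Reg3g, the related lectin, read 5.8, 7.3 and 125 on the germ-free arrays and 6038, 46.9 and 104 on the conventional arrays. Its highest value belonged to the array with small intestinal markers, and the log2 difference was -3.01 with all arrays and -0.44 without the 2 libraries. Saa2, an acute phase apolipoprotein, had its germ-free arrays on the other side, at 5387, 6475 and 3748 against 578, 3429 and 2940.5 on the conventional arrays, with log2 differences of 1.50 ± 1.20 and, without the 2 libraries, 0.63 ± 1.47. Probe sets of the Reg3 and serum amyloid A families can bind RNA of several members, so these gene names are uncertain. Lrg1 lies outside the list of 18 antimicrobial and acute phase genes tested. Of these 18, 3 did not overlap and were higher (16.7%, against 6.36% of all genes) and 0 were lower. Without the 2 libraries 4 were higher (22.2%, near the 19.5% of all genes) and 1 was lower (5.56%, against 15.3%). The median log2 difference of the list was -0.15, or 0.17 without the 2 libraries, beside 0.05 and 0.01 over all genes.

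Immunoglobulin transcripts were low on 2 of the 3 germ-free arrays and not on the third. Igha, the heavy chain constant region of IgA, read 468, 188 and 2827 on the germ-free arrays and 8083, 3182 and 2029 on the conventional arrays. Jchain, the chain that joins IgA dimers, read 142, 86.8 and 787 on the germ-free arrays and 2335, 859 and 502 on the conventional arrays. Germ-free array 3 thus lay within the conventional range for both genes, and the log2 differences were -2.57 ± 1.19 for Igha and -2.23 ± 1.02 for Jchain (adjusted p = 0.982 for both). They were -1.80 ± 1.48 and -1.33 ± 1.25 without the 2 libraries. Summed over 50 immunoglobulin probe sets, the signal was 4381, 4273 and 18187 on the germ-free arrays and 55850, 16276 and 12149 on the conventional arrays. Germ-free array 3 exceeded both other germ-free arrays at 44 of the 50, and conventional array 1 had the highest signal at 35. Of the 50, 4 did not overlap and were lower (8%, against 4.42% of all probe sets), and 0 were higher (against 6.68%). Without the 2 libraries 5 were higher (10%) and 4 lower (8%). The share over all probe sets was not counted for that fit, and over genes, at 1 probe set each, it was 19.5% higher and 15.3% lower. The median log2 difference was -1.18, or -0.23 without the 2 libraries. Variable region names are uncertain for the reason given above. Probe set 97720_at, 1 of 3 named for the heavy chain variable gene Igh-VS107, read 4, 3.4 and 6.6 on the germ-free arrays, all under the floor, and 185, 45.1 and 54.5 on the conventional arrays, while the groups of the other 2 probe sets overlapped. In pieces of whole tissue, fewer plasma cells and less RNA per plasma cell cannot be told apart. Pigr, the epithelial receptor that carries IgA into the lumen, read 8483, 9462 and 14096 on the germ-free arrays and 7858, 7817 and 8218 on the conventional arrays, a log2 difference of 0.39 ± 0.73.

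Other immune genes gave few separations with all 6 arrays. Ccr6, a chemokine receptor of B cells and of cells in lymphoid follicles, read 51.3, 40.6 and 25 on the germ-free arrays and 91.2, 94.8 and 83 on the conventional arrays, without overlap (log2 difference -1.26, or -1.48 without the 2 libraries). Pglyrp1, which binds bacterial peptidoglycan, read 724, 901 and 978 on the germ-free arrays and 1345, 1191 and 1213 on the conventional arrays, also without overlap, though a further probe set of the gene overlapped. Il1r1, the interleukin-1 receptor, lay on the other side, at 127, 107 and 136 on the germ-free arrays and 44.7, 105.5 and 86.7 on the conventional arrays, with a log2 difference of 0.73, or 0.34 without the 2 libraries. Of 41 genes for cytokines, chemokines and their receptors, 4 did not overlap and were higher and 1 was lower. In the list of NF-kB and microbial sensing genes, 1 of 23 was higher and 2 were lower. Interferon response genes (26 tested) and genes of MHC class I and peptide loading (15 tested) had 0 without overlap in either direction, and MHC class II and its loading had 1 of 13, higher. Over all genes the shares were 6.36% higher and 4.77% lower. Median differences of the 3 lists ran from -0.19 to -0.04 and were 0.15, 0.00 and 0.04 without the 2 libraries for MHC class II, interferon response and MHC class I. Without the 2 libraries, 13 of the 41 cytokine, chemokine and receptor genes were higher without overlap (31.7%) and 4 lower (9.76%). For MHC class II it was 5 of 13 higher (38.5%) and 1 lower, where 19.5% of all genes were higher and 15.3% lower. The shares each way were 20% for MHC class I, 17.4% for NF-kB and microbial sensing and 7.69% for interferon response. Leukocyte genes were present in both groups, with Cd52 at 276 to 292 on the germ-free and 149 to 318 on the conventional arrays.

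Most genes of the mitochondrial respiratory chain had higher signals in germ-free rectum, though none passed the test. Of 43 oxidative phosphorylation genes, 12 did not overlap and were higher and 0 were lower, 27.9% against the 6.36% of all genes. The median log2 difference was 0.18, against 0.05 over all genes, and 38 of 43 were above 0. Uqcrh, a subunit of complex III, read 2284, 2467 and 2939 on the germ-free arrays and 1828, 1879.5 and 2169 on the conventional arrays (log2 difference 0.38 ± 0.14). Cox6c, a subunit of cytochrome c oxidase, read 3911, 4993 and 4719 on the germ-free arrays and 3240.2, 2919 and 3301 on the conventional arrays. Ndufb9, a subunit of complex I, read 1559.5, 1451 and 1387 on the germ-free arrays and 1208, 1243 and 1057 on the conventional arrays. The summed signal of the 43 genes was 71616, 68512 and 65537 on the germ-free arrays and 59937, 58399 and 61477 on the conventional arrays, so the sums did not overlap either. Without the 2 libraries 22 did not overlap and were higher and 5 were lower, against 19.5% and 15.3% of all genes. The median was then 0.12, with 31 of 43 above 0. Across 15 settings of the processing the median of the list ran from 0.07 to 0.26. Higd1a, a hypoxia-induced protein of the inner mitochondrial membrane outside this list, was among the genes of lowest p. It read 228, 221 and 229 on the germ-free arrays and 94.4, 152 and 131 on the conventional arrays (log2 difference 0.87 ± 0.23, adjusted p = 0.982).

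Other metabolic genes went both ways. Fasn, fatty acid synthase, read 499.8, 568 and 540 on the germ-free arrays and 381, 399 and 283 on the conventional arrays, without overlap. Scd1, a fatty acid desaturase that is also abundant in fat tissue, was lower at both of its probe sets, at 190, 209 and 492 on the germ-free arrays and 927, 753 and 521 on the conventional arrays for the brighter of them. The adipocyte hormone Adipoq read 42.1, 58.2 and 316 on the germ-free arrays and 353, 255 and 232 on the conventional arrays, while Fabp4, another fat marker, read 50.3, 58.6 and 168.5 on the germ-free arrays and 64, 66.4 and 61.9 on the conventional arrays. The summed signal of 17 adipocyte genes was 2771.5 to 3719.5 on the germ-free and 3499.8 to 3974.5 on the conventional arrays, and the part of fat in the Scd1 values was not tested. The log2 difference of Scd1 was -1.41 with all arrays and -0.97 without the 2 libraries. Butyrate and ketone metabolism had 0 of 5 genes without overlap. Alad, which acts before Urod in heme synthesis, read 649, 592 and 668 on the germ-free arrays and 1145, 1026 and 807 on the conventional arrays, without overlap (log2 difference -0.63 ± 0.34). Of 19 ribosomal protein genes 4 did not overlap and were higher (21.1%, against 6.36% of all genes) and 0 were lower, with a median of 0.28 and 18 of 19 above 0. Without the 2 libraries 11 were higher (57.9%, against 19.5%) and 0 lower, with 15 of 19 above 0. Fatty acid oxidation and PPAR target genes had 2 of 35 higher and 1 lower, and xenobiotic metabolism had 2 of 53 higher and 0 lower.

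Some genes of DNA replication had lower signals in germ-free rectum. Mcm7, a subunit of the replicative helicase, read 162, 134 and 188 on the germ-free arrays and 310.5, 252 and 249 on the conventional arrays, without overlap (log2 difference -0.75 ± 0.23, or -0.66 ± 0.29 without the 2 libraries). Mcm2, of the same complex, read 80.5, 113 and 132 on the germ-free arrays and 224, 143 and 154 on the conventional arrays, also without overlap (log2 difference -0.68, or -0.28 without the 2 libraries). Mcm5 overlapped through germ-free array 3, at 167, 197 and 461 on the germ-free arrays and 569, 436 and 419 on the conventional arrays. Of 48 cell cycle and DNA replication genes, 3 did not overlap and were lower (6.25%, near the 4.77% of all genes), 0 were higher, and 10 had a log2 difference above 0. The median was -0.12, and it was -0.11 without the 2 libraries, where 7 were lower (14.6%, near the 15.3% of all genes), 3 were higher and 19 had a log2 difference above 0.

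Among clock genes, Nr1d1 and Per3 were higher and Arntl lower on every germ-free array, although none passed the test. Nr1d1 encodes REV-ERB alpha, a heme-binding repressor of Arntl, and Arntl encodes BMAL1, the activator of Nr1d1 and of the Per genes. Nr1d1 read 348, 291 and 351 on the germ-free arrays and 146, 223 and 188 on the conventional arrays (log2 difference 0.85 ± 0.30, or 0.64 ± 0.38 without the 2 libraries). Arntl read 231, 183 and 259 on the germ-free arrays and 289.6, 371 and 383.5 on the conventional arrays (log2 difference -0.64 ± 0.26, or -0.79 ± 0.32 without the 2 libraries). Per3 read 116, 136 and 146 on the germ-free arrays and 82.3, 113 and 92.5 on the conventional arrays (log2 difference 0.47 ± 0.21). None of these 3 genes overlapped, with or without the 2 libraries, and Nr1d2, the relative of Nr1d1, overlapped at 199, 202 and 72.3 on the germ-free arrays and 56.2, 71.4 and 75.2 on the conventional arrays. In all, 2 of 16 clock genes did not overlap and were higher (12.5%, against 6.36% of all genes) and 1 was lower (6.25%, near the 4.77% of all genes), with a median of 0.34, or 0.23 without the 2 libraries. Without the 2 libraries 3 of the 16 were higher (18.75%, near the 19.5% of all genes) and 1 was lower (6.25%, against 15.3%). The time of day at which tissue was taken is not given in the sources used here.

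The 250 bases before the RefSeq start of Per3 are shown because the window holds a D-box, the element bound by clock output factors of the PAR bZIP family, 2 times. It lies on the minus strand at chr4:151044666-151044915 of GRCm38.p6, is printed 5′ to 3′ on the gene's strand, and has the D-box matches in capitals.
Per3: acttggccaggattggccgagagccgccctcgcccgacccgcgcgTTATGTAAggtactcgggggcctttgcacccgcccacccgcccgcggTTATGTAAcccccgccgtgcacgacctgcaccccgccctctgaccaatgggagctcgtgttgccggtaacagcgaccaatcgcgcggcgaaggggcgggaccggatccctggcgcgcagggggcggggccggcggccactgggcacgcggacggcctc
The matches begin 205 and 158 bases before the start. The letters TTATGTAA and TTACGTAA were searched on both strands, and 0.962% of 27025 RefSeq promoter windows of the same length hold either. The E-box CACGTG, held by 6.05% of windows, and the nuclear receptor half-site AGGTCA, held by 13.8%, had 0 matches in this window of Per3, and the windows of Nr1d1 and Arntl had 0 matches of any of the 3 motifs. A match is a description of letters, and a window without one says nothing of the factor.

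Immediate early genes, which respond within minutes to growth factors and stress, had 4 of 26 members without overlap and higher (15.4%, against 6.36% of all genes) and 0 lower. Without the 2 libraries 6 were higher (23.1%, near the 19.5% of all genes) and 2 were lower (7.69%, against 15.3%). Nr4a1, an orphan nuclear receptor, read 138, 106 and 172 on the germ-free arrays and 63.1, 89.2 and 98.2 on the conventional arrays. Egr1, a zinc finger transcription factor, read 169.8, 176 and 214 on the germ-free arrays and 126, 153 and 109 on the conventional arrays, and its second probe set overlapped. Klf4, a transcription factor of differentiated epithelium, read 2468, 3415 and 2107 on the germ-free arrays and 1479.5, 1987 and 2071 on the conventional arrays. The median over the list was 0.10, and it was just under 0 with array medians equalised (-0.01), a scaling that puts the median of all probe sets at -0.04 in place of 0.06. Heat shock and stress genes had 4 of 30 higher (13.3%) and 0 lower without overlap. One of them was Hspa1b, an inducible HSP70 chaperone, whose highest value was on germ-free array 1. Without the 2 libraries 7 of the 30 heat shock and stress genes were higher (23.3%) and 3 were lower (10%).

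The lowest p among junction genes belonged to 2 claudins. Cldn4, a barrier-forming claudin, read 234, 194 and 373 on the germ-free arrays and 1011, 539 and 469 on the conventional arrays, without overlap (log2 difference -1.30 ± 0.43, and -0.90 ± 0.52 without the 2 libraries). Cldn2, a pore-forming claudin of crypts, read 185, 151 and 73.2 on the germ-free arrays and 584.5, 327.5 and 219 on the conventional arrays, without overlap. Ocln, a transmembrane junction protein, went the other way on arrays 2 and 3 but overlapped, at 94.4, 217 and 219 on the germ-free arrays and 134, 118 and 101 on the conventional arrays. Of 21 tight junction and claudin genes, 3 did not overlap and were lower (14.3%, against 4.77% of all genes), 0 were higher, and the median was -0.05. Without the 2 libraries 6 were lower (28.6%, against 15.3% of all genes) and 4 were higher (19.0%, near 19.5%), with a median of -0.13. Among solute transport genes, 4 of 39 were lower and 1 was higher without overlap. Sgk1, a kinase that stimulates the epithelial sodium channel, read 661, 588 and 603.5 on the germ-free arrays and 714, 1188 and 1302 on the conventional arrays.

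Some colonocyte and goblet cell genes were low on conventional array 1. Car2, a carbonic anhydrase of surface colonocytes, read 4794, 4781 and 4784 on the germ-free arrays and 71.4, 4443 and 4559 on the conventional arrays. Its log2 difference of 2.08 came to 0.09 without the 2 libraries. Of 18 colonocyte genes 1 did not overlap and was higher, and without the 2 libraries 4 were higher (22.2%, against 19.5% of all genes) and 1 was lower, with a median of 0.48, or -0.01 without the 2 libraries. Muc1, a transmembrane mucin, read 459.6, 249 and 265 on the germ-free arrays and 46, 149.9 and 215 on the conventional arrays, the single goblet cell and mucin gene of 15 without overlap. Of the 15, 5 were higher (33.3%) and 1 was lower without the 2 libraries. Hoxa11, a homeobox gene, read 67.7, 67.9 and 84.8 on the germ-free arrays and 3.4, 37.3 and 42.7 on the conventional arrays (log2 difference 1.18 ± 0.36, or 0.93 ± 0.44 without the 2 libraries).

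Median differences of the small intestinal, Paneth cell, gastric and squamous lists were smaller in size without the arrays that stood apart, though gastric signal did not vanish. Small intestinal enterocyte genes had a median of -0.85 with all arrays and 0.12 without the 2 libraries, and their summed signal was 7299 to 10288 on the germ-free arrays and 6346 to 55498 on the conventional arrays. Paneth cell genes, 4 tested, had medians of -1.23 and 0.13. Gastric gland markers had a median of 1.26 with all arrays and 0.26 without, and 5 of 14 did not overlap and were higher in both (35.7%, against 6.36% and 19.5% of all genes). Tff2, a mucus peptide of the stomach, read 1903, 182 and 194.5 on the germ-free arrays and 3.3, 6.5 and 16.1 on the conventional arrays. All conventional arrays were under the floor, and germ-free arrays 2 and 3 stood above it as well, at least 8.87-fold higher without the 2 libraries (log2 difference 3.15 ± 1.66, adjusted p = 1). Chia1, also of the gastric list, read 3891, 269.9 and 55.4 on the germ-free arrays and 23.4, 33.2 and 35.2 on the conventional arrays. The fit without the 2 libraries thus keeps signal of gastric markers, Tff2 on germ-free 2 and 3 and Chia1 mainly on germ-free 2. On descending colon arrays Tff2 ran from 2.4 to 294.6, so its level on these arrays need not be gastric. Squamous epithelium genes had medians of 0.86 and 0.11. Pancreatic acinar genes, smooth muscle, skeletal muscle, enteric neurons and glia, endothelium and collagens had at most 2 members each without overlap with all arrays. Without the 2 libraries they had 4 of 14, 4 of 12, 5 of 17, 7 of 16, 3 of 15 and 15 of 49 in that order, in both directions together, where 19.5% of all genes were higher and 15.3% lower.

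Other genes of low p without overlap came from several roles, and all had an adjusted p of 0.982. Mogs, the glucosidase that starts the trimming of N-glycans, read 365, 274 and 358 on the germ-free arrays and 484, 479 and 539.5 on the conventional arrays (log2 difference -0.60 ± 0.16). Kyat3, a kynurenine aminotransferase, read 56.2, 55.3 and 63.9 on the germ-free arrays and 21.4, 28.7 and 30.4 on the conventional arrays. These groups were apart on all arrays, doubted or not. Myl9, a myosin light chain of smooth muscle, read 448, 630 and 680 on the germ-free arrays and 300.5, 431 and 400.5 on the conventional arrays. The summed signal of 12 smooth muscle genes was 13828 to 26506 on the germ-free arrays and 12615 to 19814 on the conventional arrays, and its part in the Myl9 values was not tested. Atp13a3, a P-type ATPase, read 65.4, 71.2 and 65.4 on the germ-free arrays and 111, 114 and 118 on the conventional arrays, while its other probe set overlapped.

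**Figure D3:**
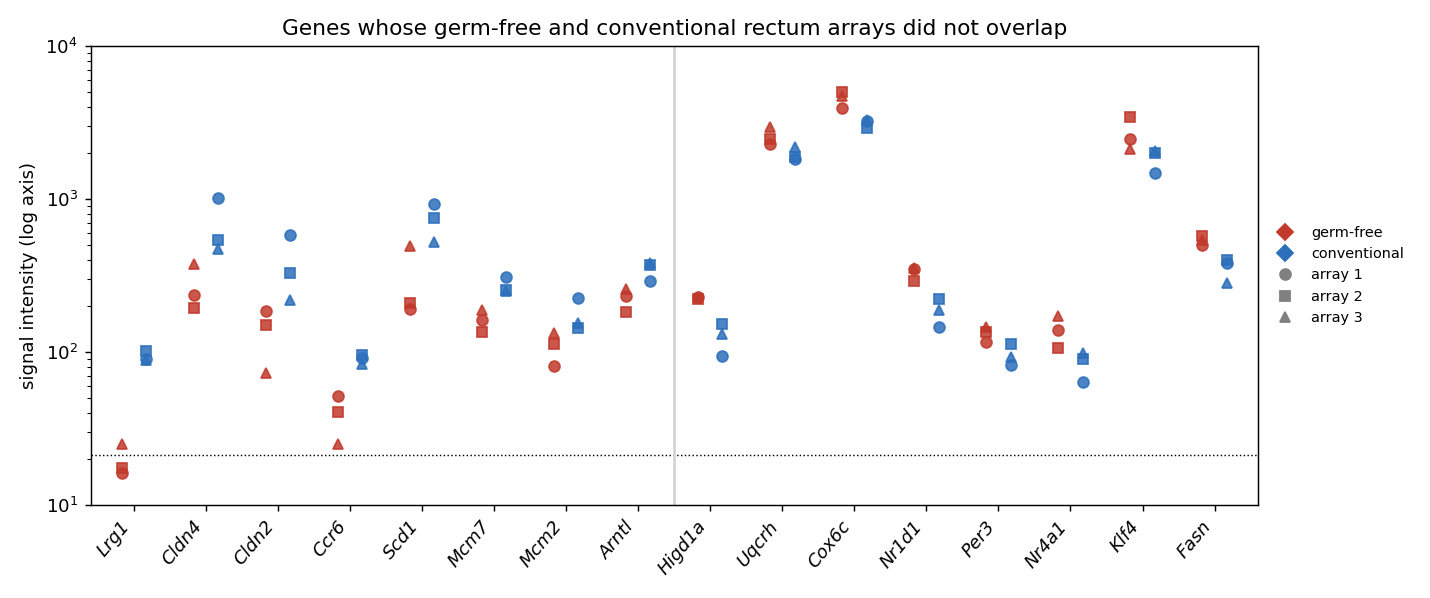
Signal intensity (log axis) of 16 genes on the 6 rectum arrays, germ-free (red) left of conventional (blue), with array numbers as symbols and the floor of 21.2 as a dotted line. The 8 genes left of the grey line are lower and the 8 to the right higher on every germ-free array, and none passed the test.

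**Figure D4:**
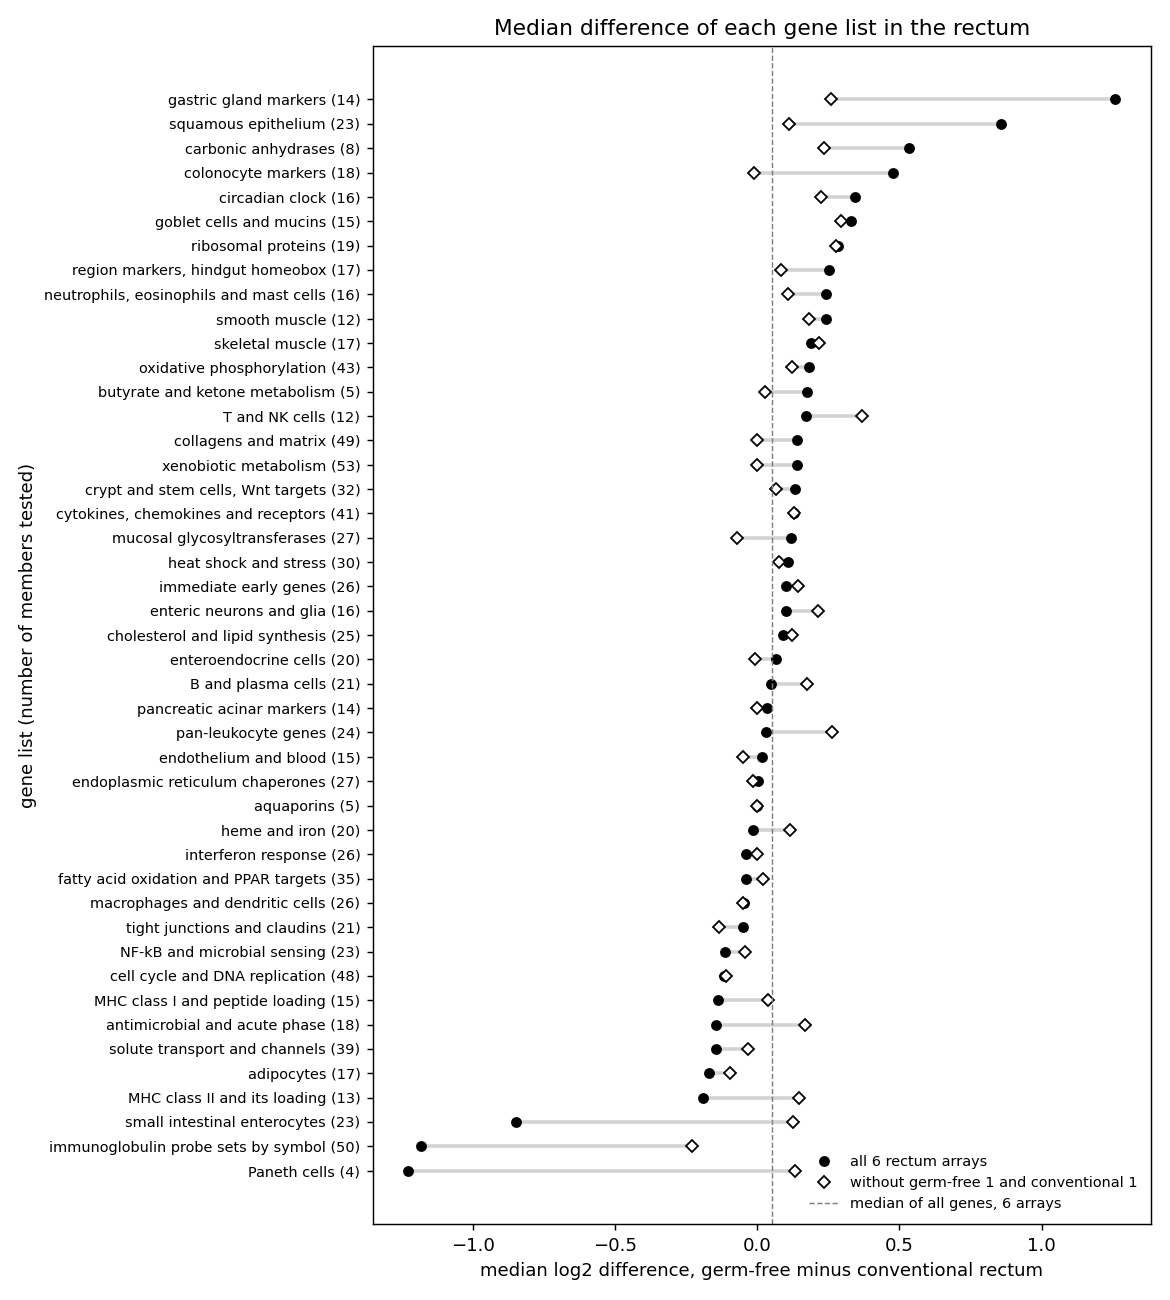
Median log2 difference, germ-free minus conventional rectum, over the tested members of 45 gene lists, with all 6 arrays (filled circles) and without germ-free 1 and conventional 1 (open diamonds); the dashed line is the median of all genes, 0.05. The longest shifts between the 2 symbols belong to Paneth cell, small intestinal, immunoglobulin, gastric and squamous lists. The ribosomal protein and cell cycle lists hardly moved.

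Differences found in the other 3 regions were then looked up in the rectum, a comparison added after the data were seen. Limma called 89 of 9033 probe sets (0.985%) in the mean of corpus, jejunum and descending colon, 55 higher and 34 lower in germ-free tissue, in a contrast that leaves out the rectum arrays but shares the estimate of the spread, and perhaps animals, with them. In the rectum 76 of the 89 had the same sign (85.4%, against 61.0% of all probe sets tested), and the sizes were smaller. The 89 were chosen for passing the test in the other regions, which by itself favours larger values there. The 55 higher probe sets had a median log2 difference of 0.29 in the rectum and 0.84 in the other regions, and the 34 lower ones -0.45 and -0.98. Of the 55, 13 did not overlap in the rectum in that same direction (23.6%, against 6.68% of all probe sets), and of the 34, 10 did (29.4%, against 4.42%). Without conventional jejunum 3 and germ-free corpus 3 the other regions gave 42 calls (0.465%), 36 of them among the 89, and 33 of the 42 had the same sign in the rectum (78.6%). A difference between the rectum and the other regions passed the test for 1 of them, the Urod probe set.

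The examples that follow were chosen after their values were seen, and without conventional jejunum 3 and germ-free corpus 3 the calls elsewhere were lost for Lrg1, Psme3, Jup, Uqcrh and Igkv6-14 (adjusted p from 0.0530 to 0.0818). Lrg1 had log2 differences of -2.05 in the rectum and -1.40 in the other regions (adjusted p = 0.0192 there), and Cldn4 of -1.30 and -1.08 (adjusted p = 0.0387). Psme3, an activator of the proteasome, read 208, 151 and 173 on the germ-free rectum arrays and 294, 313 and 305 on the conventional rectum arrays, with log2 differences of -0.79 in the rectum and -0.70 elsewhere. Jup, the junction protein plakoglobin, read 583, 641 and 467 on the germ-free rectum arrays and 950.4, 769 and 833 on the conventional rectum arrays. Uqcrh and Ndufb3 of the respiratory chain were among the 89, with Uqcrh at 0.38 in the rectum and 0.39 elsewhere, and Ndufb3, of complex I, at 0.41 and 0.64. The immunoglobulin light chain probe set named for Igkv6-14 differed by -3.36 in the rectum and -3.08 elsewhere. Its germ-free rectum arrays read 26.7, 22 and 173 and its conventional rectum arrays 2524, 225 and 192. The highest value belonged to the array with small intestinal markers. Without germ-free rectum 1 and conventional rectum 1 the log2 difference in the rectum was -1.75.

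Other probe sets were called in the remaining regions and lay near 0 in the rectum. Csnk2a1, a catalytic subunit of casein kinase 2, had, at probe set 104545_at, a log2 difference of 1.18 ± 0.14 elsewhere and -0.03 ± 0.24 in the rectum, where it read 48.4, 64.4 and 80.9 on the germ-free arrays and 64.6, 66.1 and 62.8 on the conventional arrays. The other 3 probe sets of the gene were not called elsewhere and overlapped in the rectum. Pex11a, a peroxisome division factor, had 0.70 ± 0.09 elsewhere and -0.04 ± 0.16 in the rectum. Ckap4, a protein of the endoplasmic reticulum, had -0.98 ± 0.14 elsewhere and -0.04 ± 0.24 in the rectum. The differences between rectum and the other regions were -1.21 ± 0.27, -0.74 ± 0.18 and 0.94 ± 0.27 for these genes, and none passed the test over all probe sets (adjusted p = 0.999 each).

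**Figure D5:**
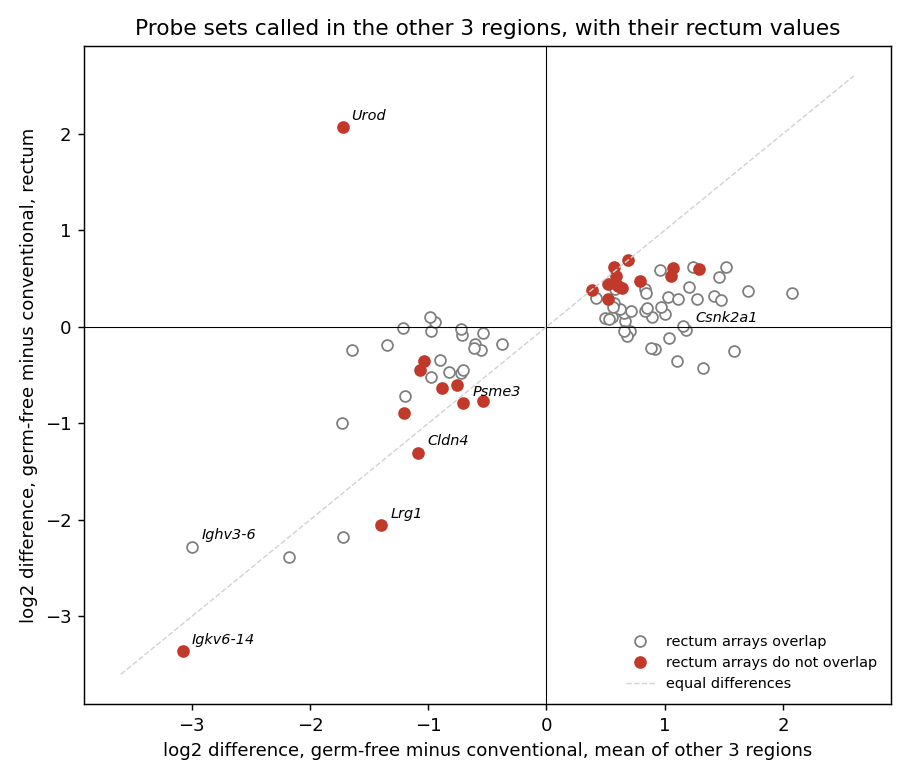
Log2 difference, germ-free minus conventional, in the mean of the other 3 regions (x axis) and in the rectum (y axis) for the 89 probe sets called in the other regions; filled points are those whose rectum groups did not overlap and the dashed line marks equal differences. Most points share their sign, at smaller values in the rectum, and Urod stands alone in the upper left.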

How the data were processed

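Per the labels, total RNA from 24 pieces of mouse gut was hybridised to Affymetrix arrays. The deposited table holds signal intensity for 12488 probe sets on a linear scale. The mean of the middle 96% was 200.1 on every array, so the deposited intensity values were taken as already scaled, and the signal algorithm and software are not given in the sources used here. Of the probe sets, 10855 listed 1 gene, 396 several and 1237 none in the platform annotation, and a probe set that listed several was given no gene name. The 66 control probe sets were left out. Signals were floored at the 25th percentile of all values (21.2) and log2 was taken. Testing was limited to probe sets whose signal passed the 40th percentile (51.5) on 3 or more arrays.

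The limma package (version 3.58.1, under R 4.3.3, and statmod 1.5.0) fitted 1 mean for each of 8 groups with an intensity trend in the moderated variance. Tests were two-sided and called at an adjusted p of 0.05. The steps were tested on simulated data. Genes named were those of lowest p without overlap, up to 20 for each result, up to 4 members of lowest p for each list, and Hoxb13, Aqp8, Reg3g, Reg3b, Pigr, Igha and Jchain. Other genes, among them markers and members of the 89 probe sets called elsewhere, were named after their values were seen. The lists and comparisons were chosen with earlier results of these data known. Alternatives covered floor, filter, scaling, variance model, arrays in the fit, pairing by number and leaving out arrays. Promoters came from RefSeq (GRCm38.p6), and the array files name no genome build.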

Additional observations from a re-analysis of the deposited data

Results flagged for a closer look

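The status difference of Urod probe set 161328_i_at was not the same in the rectum and in the descending colon by a test of the difference itself, with a log2 gap of 4.04 ± 0.38 (limma, adjusted p = 1.16e-05). The gap between the rectum and the mean of the other 3 regions was 3.79 ± 0.31 (adjusted p = 1.01e-06). In the rectum the germ-free arrays read 71.2 to 106 and the conventional arrays 13.7 to 19.6, while in the descending colon the germ-free arrays read 15.5 to 19.7 and the conventional arrays 80.1 to 86.1. Without conventional rectum 1, germ-free rectum 1 and germ-free descending colon 1 the first gap was 4.20 (adjusted p = 0.000605), and without 6 libraries with markers of another region the second was 3.89 (adjusted p = 4.76e-05). The conventional rectum value of 13.7 belonged to array 1, which had small intestinal markers, so there the signal went with the label and not with those markers. The cause was not tested.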

How the results depend on the processing

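With all libraries the count of called probe sets in the rectum was 1. It was 0 under a higher floor (40th percentile), a higher filter (60th percentile) or a fit of the rectum arrays alone, and 1 when any 1 rectum array was left out. Without germ-free rectum 1 and conventional rectum 1 the count of 1 became 0 under a lower floor (10th percentile), the higher filter, robust empirical Bayes or a fit of the rectum arrays alone. With no filter it was 2, Urod and Cacna2d3, a calcium channel subunit with signals near the floor. It was 0 to 0 when 1 of the 4 remaining arrays was also left out, with the lone array assumed to vary like the other groups, and under the higher floor the 1 call was Kifc1, a mitotic kinesin, at -0.94, in place of Urod. For the rectum against the descending colon the count was 0 under the higher floor or the higher filter and 2 with no filter, where an unnamed probe set joined Urod. For the rectum against the other 3 regions it was 0 under the higher filter. That filter, a signal of 127, takes the Urod probe set out of the test, and the cause of the other shifts was not tested. Quantile normalization, equalised medians and no intensity trend each kept these counts at 1. Over the values of named genes, 1251 stayed, 48 moved by more than the replicate spread, 11 lost a call (all of the Urod probe set), 1 gained one (Kifc1) and 0 changed sign past the threshold. The contrasts between regions cannot be fitted to rectum arrays alone.

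Deviations of same-numbered germ-free and conventional rectum arrays correlated at 0.10, 0.18 and -0.01, and 4 of the 6 arrays correlated best with their own number. Those of rectum and descending colon correlated at 0.16 to 0.45 in germ-free mice, with 6 of 6 arrays best with their own number, and at -0.05 to 0.06 in conventional mice, with 2 of 6. Germ-free array 3 also had the highest median signal of its group in both regions, at 89.9 in rectum and 103.5 in descending colon. Whether the germ-free numbers mark shared animals was not tested, and the labels do not give it. Not every pair passed 0.1, so equal numbers were not taken as pairs, and with the replicate block, fixed or random, each of the counts was 1. The count called in the mean of the other 3 regions was 89 with all libraries and 42 without conventional jejunum 3 and germ-free corpus 3, an alternative added after the data were seen.

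The small number of arrays limits what can be detected, and signals under the floor have no order. Without conventional rectum 1 alone the medians were 0.20 for small intestinal, -0.12 for Paneth cell and -0.04 for colonocyte genes, and without germ-free rectum 1 alone they were 0.40 for gastric and 0.23 for squamous genes.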
